A study of Rattus norvegicus with 6 samples.

Results

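The developmental transcription factors of the forkhead (Fox), homeobox (Hox, Pax, Lhx, Nkx), SRY-box (Sox) and spalt-like (Sall) families were examined in the rat jejunum, the middle segment of the small intestine. All genes were taken whose array probes carry a RefSeq accession with a rat symbol that starts with one of these family names, leaving out Foxm1, and each gene was read from the probe with the highest mean signal. This gave 75 genes among 13837 named genes, measured by 85 of 41012 probes. Of the 75 genes, 73 belong to the families (22 Fox, 19 Hox, 10 Sox, 8 Nkx, 7 Lhx, 4 Pax and 3 Sall), and Foxred2 and Paxip1 share only the letters of the name. The group was selected on the large differences of Sall3 and Foxe1 between the arrays compared here, so member differences in this comparison are descriptions. Calls of members are counted only to set them beside the share of all named genes, and support nothing.

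Male Sprague-Dawley rats, 6 weeks old and weighing 200 ± 20 g, were kept at 25°C. The control group was not stressed. The stressed group (S3d) was exposed for 3 days, 2 h per day, to 35°C with shaking at 0.1 × g, a model of the heat and vibration of summer transport. Each group had 3 samples on 1-colour Agilent arrays, each made from the RNA of 3 rats pooled, and the labels give 10 rats per group. The spread between samples is therefore a spread between pools, and whole tissue cannot separate fewer cells of a type from less RNA per cell.

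Fox proteins bind DNA through a winged-helix forkhead domain, Sox proteins through an HMG box, Sall proteins through zinc fingers, and the Hox, Nkx, Lhx and many Pax proteins through a homeodomain. Most are known as regulators that set the position and identity of cells in the embryo, and several keep a role in the adult gut: Foxa factors in the endoderm-derived epithelium, Nkx2-2, Pax4 and Pax6 in hormone-producing cells, Nkx2-3 in the mesenchyme, Sox10 in enteric glia and SoxF factors in vessels. Hox genes lie in 4 clusters, A to D, with low paralog numbers used at the head end of the body and high numbers towards the tail.

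Some features of the arrays bear on every value below. The scanner files and the deposited normalized table carried opposite group labels: for every replicate number, the table column of one group held the values of the scanner file of the other (rank correlation 0.99999 to 1.0 over 41012 probes, against 0.941 to 0.948 with the file of its own group). This match does not show which labels are right, so arrays are named by the labels of the scanner files, and the differences below are S3d minus control by those labels. By the labels of the table, 51 of the 56 genes tested had a difference of the opposite sign. Each of the 2 slides held 1 group, with 450 days between their scans, and slide, scan time and group cannot be told apart in any difference below. The 75th percentile of the signal was 414.8 to 430.0 on the control-labelled arrays and 1457.7 to 1558.3 on the S3d-labelled ones, and 69.1% to 73.7% against 77.5% to 81.5% of spots were well above background. Levels are therefore given as log2 of the processed signal minus log2 of the 75th percentile of the array, a scale on which 1 unit is a doubling and on which levels of different probes are not comparable. S3d replicate 1 stood apart through pancreatic transcripts: Cpa1 had a level of 7.08 there and -8.2 to -6.85 on the other 5 arrays, and the summed linear level of 4 pancreatic genes was 0.269 to 0.586 on the control-labelled arrays and 0.508 to 760 on the S3d-labelled ones. Of the 40 members called different below, leaving out this array kept the sign of 40 and the call of 38. Among the jejunal markers, all 7 enterocyte genes measured were well above background on all 6 arrays. Their median log2 difference (S3d minus control) was -1.09 with 6 of 7 lower on the arrays labelled S3d, but under quantile normalization, which gives every array the same distribution of values, 2 were higher and 2 lower, and the part of cell composition in the values below was not tested.

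Sall3 and Foxe1, the genes the group was selected on, had the most negative differences of the 56 genes that could be compared. Sall3, a spalt-like zinc finger repressor, had levels of 4.87, 4.51 and 4.91 on the control-labelled arrays and 1.05, 0.63 and 0.65 on the S3d-labelled ones. The groups did not overlap, and the means of 4.76 ± 0.22 and 0.78 ± 0.24 (SD, n = 3 each) differed by -3.98 on the log2 scale (SE 0.16), 15.8-fold lower on the S3d-labelled arrays. Foxe1, known as a factor of thyroid development, had levels of 5.94, 5.99 and 6.0 against 2.33, 1.94 and 2.2. Its means were 5.98 ± 0.03 and 2.16 ± 0.20, a difference of -3.82 (SE 0.11) or 14.1-fold. In unscaled signal Sall3 went from 9727 to 12890 on the control-labelled arrays down to 2408 to 3025. Without S3d replicate 1 the differences were -4.12 for Sall3 and -3.90 for Foxe1. In the normalized table, by its own labels, they were 3.77 and 3.45.

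The value for Sall3 rests on 1 of its 2 probes. The dimmer probe, also well above background on all 6 arrays, had levels of -4.19, -4.07 and -4.33 on the control-labelled arrays and -4.29, -3.3 and -3.11 on the S3d-labelled ones. These groups overlapped, and the difference was 0.63 (SE 0.31), of the opposite sign to the bright probe. Averaged over both probes, the difference of Sall3 was -1.68. Of the other Sall genes, Sall1, a factor of kidney development, was at -4.36, -4.31 and -4.51 against -4.13, -4.07 and -3.94. Its difference of 0.35 turned to -0.05 under quantile normalization and to -0.07 with normexp background correction. Normexp models the background of each array, and here it added an offset of 50 to every signal before quantile normalization. The offset shrinks log2 differences of dim probes by construction, so smaller values with normexp do not measure a part played by background. Sall2 was not well above background on any array. Foxe1 has a single probe. Of the thyroid markers, Tshr, the thyrotropin receptor, was not well above background on any array, while Tg was at -3.75 to -3.43 and -2.63 to -2.51.

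**Figure D1:**
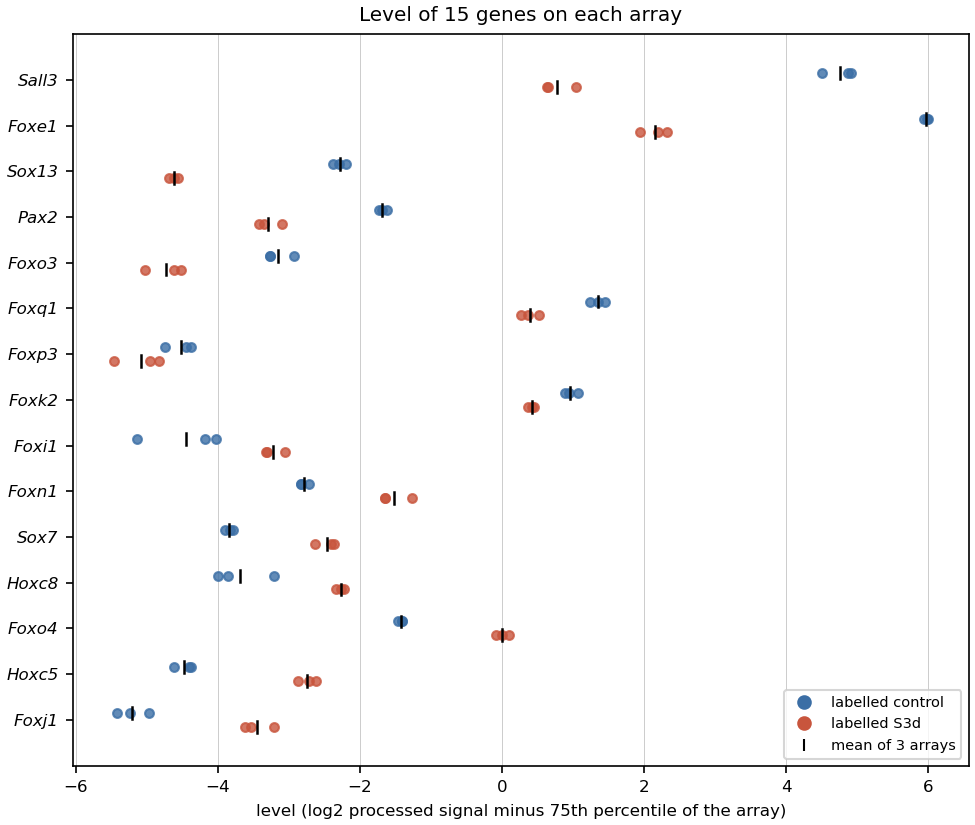
Levels of 15 genes on each of the 6 arrays, in log2 units relative to the 75th percentile of the array, with blue points for arrays labelled control, red points for arrays labelled S3d and a bar at each group mean (n = 3). The upper 8 genes were lower and the lower 7 higher on the S3d-labelled arrays, and of these 15 only Sall3 and Foxe1 were separated by more than 3 units.

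Disagreement between probes was not limited to Sall3. Of the 75 genes, 9 had more than 1 probe, and in 6 of the 9 the probes differed in sign (Foxc2, Foxn3, Hoxd1, Sall3, Sox17 and Sox18). In Foxc2, Hoxd1 and Sox17 only 1 probe was well above background on all 6 arrays. Foxn3 had 3 such probes, with differences of 0.80, 0.84 and -0.60, and none of the 3 overlapped between the groups. The probes of Sox18, an endothelial factor, differed by -0.47 and 0.23. For Sox6, whose probes agreed in sign, the brighter probe gave -0.11 with overlapping groups and the other -0.65 without overlap. The position of these probes in the transcripts was not analysed here.

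**Figure D2:**
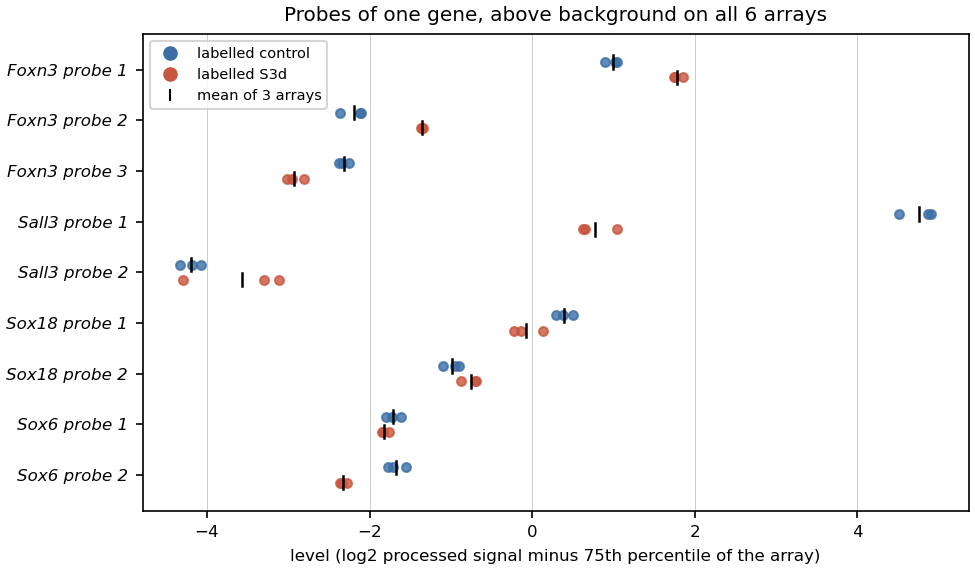
Levels on each array for the 4 genes with at least 2 probes well above background on all 6 arrays, in log2 units relative to the 75th percentile of the array, blue for labelled control and red for labelled S3d, with a bar at each mean (n = 3). Probe 1 is the brightest of its gene. The gap of -3.98 at Sall3 probe 1 is absent at probe 2, where the groups overlap.

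In all, 46 of the 75 genes (61.3%) were well above background on all 6 arrays, compared with 10453 of 13837 named genes (75.5%). A further 16 (21.3%, against 11.4% of named genes) were not above background on any array, and 9 were above it on some arrays of a group. The detected share was 18 of 22 for Fox, 8 of 10 for Sox, 3 of 4 for Pax, 5 of 8 for Nkx, 7 of 19 for Hox and 2 of 7 for Lhx genes. Another 4 genes, Lhx4, Pax3 and Sox2 among them, were above background on all 3 arrays labelled S3d and on none labelled control (5.33%, against 3.58% of named genes), and the reverse held for 0 of the 75 (against 0.202%). Since the arrays labelled S3d were brighter, the named ones are given as approximate bounds: about 2.10-fold higher for Pax3, 1.37-fold for Sox2 and 1.17-fold for Lhx4. The bound of Pax3 rests on its brighter probe, and its other probe differed by 0.01 with overlapping groups. Under quantile normalization and with normexp no Pax gene was called higher.

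The groups were compared for genes that either group had well above background on each of its 3 arrays. This held for 56 of the 75 genes, 10 of them through only 1 group. At a Benjamini-Hochberg adjusted p under 0.05 (limma over all probes), 27 of the 56 (48.2%) were higher on the arrays labelled S3d and 13 (23.2%) lower, against 36.1% and 37.3% of the 11496 named genes tested. The groups did not overlap for 43 of the 56 (76.8%), against 78.8% of named genes. These counts depend on the scaling: the split of 27 higher to 13 lower was 20 to 15 under quantile normalization and 50 to 3 without scaling between arrays. By the labels of the normalized table, opposite to those of the scanner files, it was 15 to 20, the quantile split with the directions turned. Leaving out S3d replicate 1 gave 26 to 13. Differences also moved with level. Among the 46 genes above background on all arrays, the median difference was 0.97 for the 20 genes with a mean level from -4 to -2, where that of 2084 named genes was 0.22. It was -0.54 for the 7 genes above 0, Sall3 and Foxe1 among them, where that of 5192 named genes was -0.25. From -2 to 0 it was 0.03 against 0.04, below -4 it was 0.44 against 0.18, and over all 46 genes 0.10 against -0.07.

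**Figure D3:**
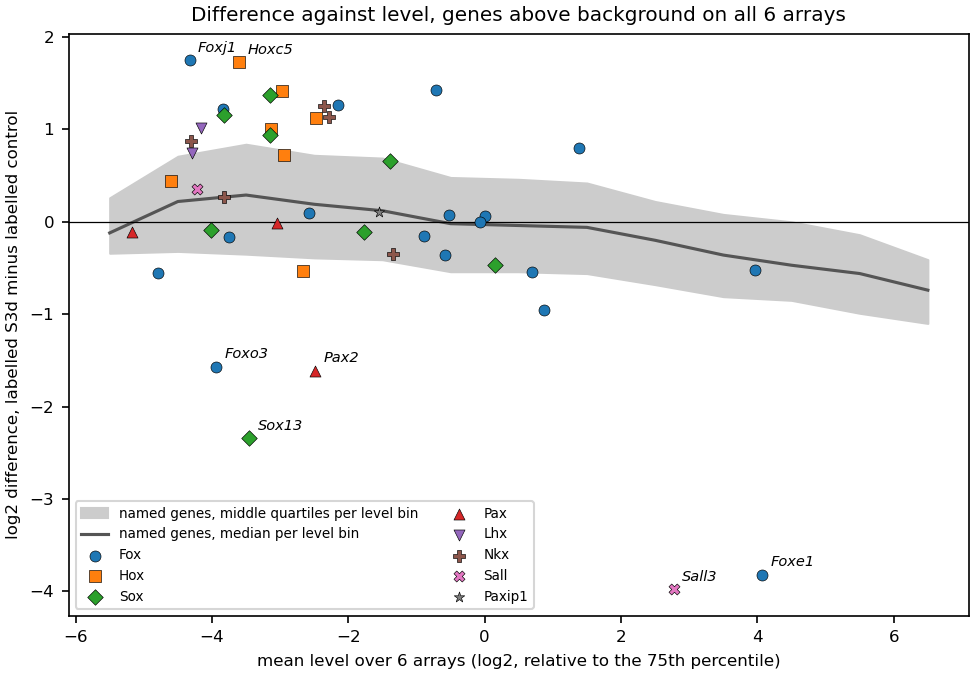
Log2 difference (labelled S3d minus labelled control) against mean level for the 46 genes well above background on all 6 arrays, with symbols by family. The grey line and band are the median and the middle quartiles of all named genes in bins of 1 log2 unit, and Sall3, Foxe1, Sox13, Pax2 and Foxo3 lie far below the band.

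Among the Fox genes, 19 were tested, of which 6 were higher, 7 lower and 6 not called, against 36.1% higher and 37.3% lower of named genes. Without scaling between arrays 17 were higher and 1 lower. The FOXO factors, which act downstream of insulin and AKT signalling, went separate ways. Foxo3 had levels of -2.93, -3.26 and -3.26 on the control-labelled arrays and -4.62, -4.52 and -5.02 on the S3d-labelled ones, a difference of -1.57 that was -0.81 with normexp and became 0.28 without scaling. Foxo4 had -1.46, -1.4 and -1.41 against 0.1, -0.08 and 0.00, which is 2.69-fold higher. Foxo1 had -0.09 to -0.03 against -0.2 to 0.02, with a difference of 0.00. The groups were thus apart for Foxo3 and Foxo4, in opposite directions, and overlapped for Foxo1.

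Foxj1, the regulator of motile cilia, had levels of -5.24, -4.96 and -5.41 on the control-labelled arrays and -3.21, -3.53 and -3.61 on the S3d-labelled ones, 3.36-fold higher, though its difference of 1.75 was 0.50 with normexp. Foxn1, a factor of thymic and hair follicle epithelium, was 2.41-fold higher (-2.83 to -2.72 against -1.65 to -1.26), and Foxi1, a factor of ionocytes, 2.32-fold higher (-5.14 to -4.02 against -3.32 to -3.05). With normexp the differences of Foxn1 and Foxi1 were 0.76 and 0.27 in place of 1.27 and 1.22. Foxq1, which is known from gastric mucin expression and hair, went the other way, from 1.36, 1.24 and 1.45 to 0.37, 0.27 and 0.53. Foxk2 was at 0.89 to 1.07 against 0.37 to 0.46, and the bright Foxp1 probe at 4.17 to 4.26 against 3.68 to 3.73. The differences of Foxq1, Foxk2 and Foxp1 were -0.96, -0.54 and -0.52, and those of Foxq1 and Foxk2 became 0.88 and 1.30 without scaling. The unscaled signal of Foxp1 was also higher on the S3d-labelled arrays, at 19360 to 20160 against 7487 to 8163. In the normalized table, by its labels, Foxp1 differed by 0.15.

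Foxh1, a partner of Smad proteins, was above background on 1 control-labelled array and all 3 S3d-labelled ones, with a difference of 1.41. Foxj2, Foxj3 and Foxs1 had differences of 0.07, -0.16 and 0.10 with overlapping groups. Foxred2, an oxidoreductase that shares only the first letters of the name, had -6.35, -6.10 and -5.71 against -3.23, -3.41 and -3.66.

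The endodermal factors Foxa2 and Foxa3 stayed close between groups, with differences of 0.06 and -0.15. Foxa1 was above background on a single array labelled S3d only. Foxp3, the factor of regulatory T cells, had levels of -4.44, -4.74 and -4.38 against -4.82, -5.46 and -4.95, a difference of -0.55 that no longer passed the threshold on leaving out control replicate 1 (-0.51) or 3 (-0.48), or S3d replicate 2 (-0.36) or 3 (-0.62). With normexp it was -0.31 and under quantile normalization -1.08. Other T lymphocyte genes did not move as 1 group: Cd3e and Cd3g had differences of -0.41 and -0.54 and Ctla4 one of 1.64, with 1 gene higher and 3 lower of the 5 tested. The summed level of the 6 T lymphocyte genes on the linear scale was 14.3 to 21.1 and 11.9 to 14.6.

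Among the Hox genes on the array, those above background had low and middle paralog numbers. Of the 14 genes of paralogs 1 to 9, 7 were well above background on all 6 arrays and 12 on at least 1. Of the 5 genes of paralogs 10 to 13 (Hoxb13, Hoxc12, Hoxd10, Hoxd12 and Hoxd13), 0 were above background on any array. Of 11 Hox genes tested, 6 were higher on the S3d-labelled arrays and 2 lower, or 5 and 2 under quantile normalization, while without scaling 10 were higher. The shares over named genes were 36.1% higher and 37.3% lower, and 78.8% of named genes did not overlap. In the HoxC cluster Hoxc5 had levels of -4.62, -4.37 and -4.41 on the control-labelled arrays and -2.62, -2.72 and -2.87 on the S3d-labelled ones, 3.32-fold higher. Hoxc8 had -3.2, -3.99 and -3.85 against -2.22, -2.33 and -2.26, 2.67-fold higher, and Hoxc4 differed by 0.72. With normexp Hoxc5 and Hoxc8 differed by 0.69 and 0.59 in place of 1.73 and 1.42. In the HoxA cluster Hoxa2 and Hoxa7 differed by 1.12 and 1.00. No level overlapped between the groups for these 5 genes.

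Another 3 Hox genes had lower levels on the arrays labelled S3d without overlap. Hoxb7 had -2.41, -2.45 and -2.33 against -2.65, -2.96 and -3.18, a difference of -0.53. Hoxd9 was above background on 3 control-labelled arrays and 1 S3d-labelled array (-5.26 to -4.72 against -6.84 to -6.07). Hoxb8 was above background on 2 control-labelled arrays and on none labelled S3d, with an approximate bound of 2.30-fold higher on the control-labelled arrays. Other HoxD genes were in the opposite direction to Hoxd9: Hoxd1, above background on all 6 arrays, had -5.19 to -4.58 against -4.5 to -4.28, and Hoxd4 had -7.77 to -5.44 against -4.88 to -4.47. Neither was called.

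**Figure D4:**
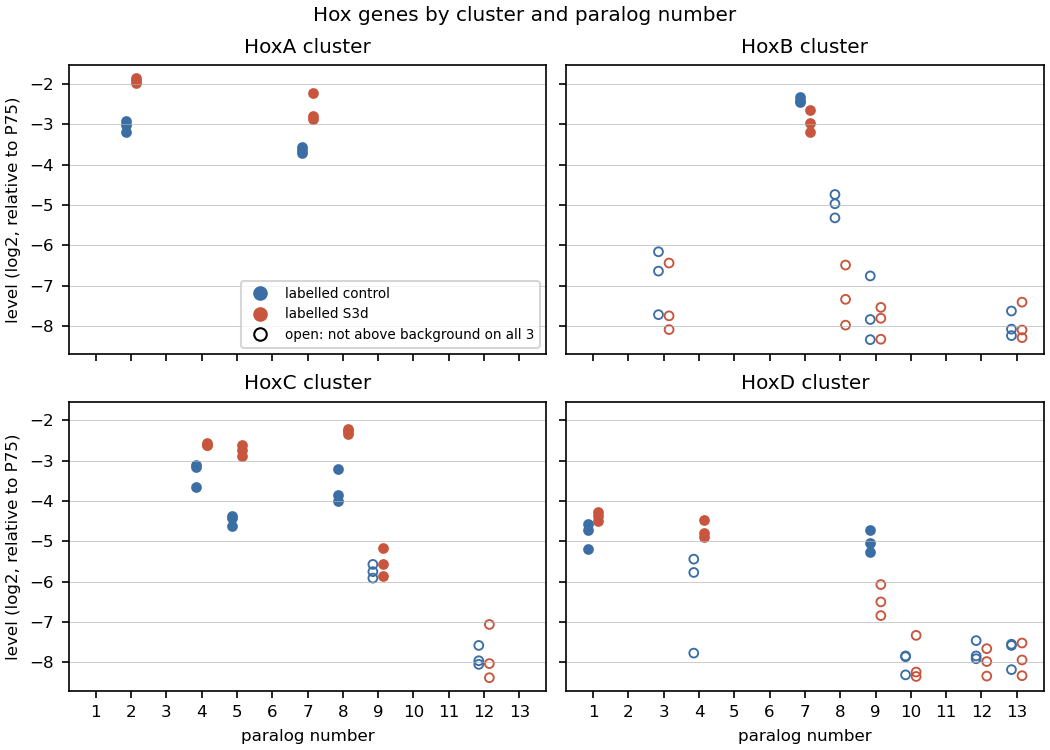
Levels of 18 Hox genes by cluster and paralog number, in log2 units relative to the 75th percentile (P75) of the array, blue for labelled control and red for labelled S3d. Filled points mark groups in which the gene was well above background on all 3 arrays. From paralog 10 upward every point is open.

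The Sox genes were all measured on at least some arrays, and of 10 tested 6 were higher and 2 lower (9 and 1 without scaling), against 36.1% and 37.3% of named genes. Sox13, a SoxD factor with a role in T cell development, had levels of -2.29, -2.19 and -2.37 on the control-labelled arrays and -4.62, -4.68 and -4.56 on the S3d-labelled ones, 5.06-fold lower. Its difference of -2.34 was -1.25 with normexp and also negative without scaling (-0.49), as were only Sall3 (-2.14) and Foxe1 (-1.97) among the members called lower. The related Sox6 differed by -0.11. Of the SoxF factors of endothelium, Sox7 had -3.9, -3.82 and -3.79 against -2.36, -2.4 and -2.63, 2.59-fold higher (0.54 with normexp in place of 1.37), while Sox17 differed by -0.09 with overlap and the brighter Sox18 probe by -0.47. Endothelial markers were mixed too, with Pecam1 at -1.17, Tie1 at 0.86 and Cdh5 and Kdr not called. Sox10, a factor of enteric glia, had -1.55, -1.77 and -1.83 against -1.11, -1.03 and -1.05, a difference of 0.66. Sox12 and Sox14 had differences of 0.94 and 1.16 without overlap. The glial markers S100b and Gfap were not well above background on any array. Sox11 had -6.6, -6.7 and -2.99 against -1.77, -1.89 and -2.12, and since only control replicate 3 was above background in its group, its difference of 3.50 (SE 1.01) is carried by a pair of control arrays below it.

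A promoter of one gene in each direction is shown, since both genes were well above background on all 6 arrays and their groups did not overlap. The windows run from 250 bases before to 50 after the RefSeq start (GRCr8) with CG dinucleotides in capitals, for Sox13 at chr13:47427523-47427822 on the minus strand and for Foxo4 at chrX:70425313-70425612 on the plus strand.
Sox13: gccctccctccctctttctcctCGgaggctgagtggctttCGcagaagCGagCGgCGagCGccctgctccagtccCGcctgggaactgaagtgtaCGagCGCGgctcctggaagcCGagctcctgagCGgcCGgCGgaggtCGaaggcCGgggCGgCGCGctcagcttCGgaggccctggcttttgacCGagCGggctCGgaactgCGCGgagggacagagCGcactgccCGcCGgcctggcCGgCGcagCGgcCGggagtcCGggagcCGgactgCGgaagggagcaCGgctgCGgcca
Foxo4: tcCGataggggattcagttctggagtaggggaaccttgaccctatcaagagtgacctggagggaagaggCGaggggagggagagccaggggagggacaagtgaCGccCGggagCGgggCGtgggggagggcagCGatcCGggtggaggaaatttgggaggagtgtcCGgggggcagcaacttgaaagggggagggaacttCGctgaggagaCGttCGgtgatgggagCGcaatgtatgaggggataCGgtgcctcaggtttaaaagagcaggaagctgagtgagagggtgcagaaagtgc
Sox13 holds 37 CG dinucleotides, a number reached by 5.03% of 27457 promoters, and Foxo4 holds 14, reached by 35.9%. The motifs searched on both strands were the GC box GGGCGG, the TATA box TATAAA, the heat shock element pair GAANNTTC and the forkhead core TGTTTAC, which occur in 34.7%, 14.3%, 8.38% and 3.8% of all promoters. Sox13 holds the GC box, and Foxo4 holds no match to the 4.

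Of the homeobox genes outside the Hox clusters, the Pax genes gave the widest lower value. Pax2, a factor of kidney and urogenital development, had levels of -1.62, -1.73 and -1.69 on the control-labelled arrays and -3.35, -3.42 and -3.10 on the S3d-labelled ones, 3.06-fold lower, a difference of -1.61 that was -1.04 with normexp and became 0.23 without scaling. Pax6 and Pax4, factors of endocrine cells, differed by -0.01 and -0.11 with overlapping groups. In the normalized table, by its labels, they differed by 0.23 and 0.73. Under quantile normalization 2 of the 4 Pax genes were called lower, where the main setting had 1. Nkx2-2, another factor of endocrine cells, had -1.07, -1.26 and -1.16 against -1.06, -2.1 and -1.38 and overlapped as well. Hormone-cell markers beside them were lower on the arrays labelled S3d for Cck (-2.56), Neurod1 (-1.56) and Gip (-0.81). Chga was higher (0.77) and Chgb was not called (-0.24). Under quantile normalization 2 of these 5 markers were higher and 3 lower, and without scaling 4 were higher and 1 lower. The summed level of the 5 enteroendocrine genes was 125 to 137 and 72.3 to 79.3.

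Of the Nkx genes 3 of 5 tested and of the Lhx genes 3 of 3 were called, all higher on the arrays labelled S3d. The shares over named genes were 36.1% higher and 37.3% lower. Under quantile normalization, and likewise with normexp, 2 Nkx genes and 1 Lhx gene were called higher. The median difference of the Lhx genes was 1.02, or 0.65 under quantile normalization and 0.19 with normexp. Nkx2-3, a factor of the gut mesenchyme, had levels of -2.84, -2.61 and -3.10 against -1.77, -1.6 and -1.78, 2.19-fold higher, and Nkx6-3 differed by 0.88. Nkx2-1, which acts with Foxe1 in the thyroid, had -4.07 to -3.8 against -3.88 to -3.43, a difference of 0.27 with overlap. Lhx8 and Lhx9 had differences of 0.74 and 1.02. Nkx2-5, Nkx6-1, Nkx6-2, Lhx1, Lhx5 and Lhx6 were not above background on any array.

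Genes that act with or after these factors were tested in the same limma fit, with calls at an adjusted p under 0.05 against the same 36.1% higher and 37.3% lower over named genes. Of 6 Hox cofactors, 1 was higher (Pbx3, 0.83) and 1 lower, with a median difference of -0.03. Of 11 Polycomb genes, which silence developmental genes, 7 were higher and 2 lower with a median difference of 0.66, against 0.00 over named genes. Eed (1.68) and Phc3 (1.51) led the first and Ezh1 (-1.39) the second. Of 7 Trithorax genes, which counter Polycomb, 1 was higher and 5 lower (median -0.43), with Ash1l at -1.63. The Hedgehog pathway, which signals from gut epithelium to mesenchyme, had 4 higher and 3 lower of 10 (median 0.21), with the ligand Ihh at -0.42, the transducer Smo at 1.00 and the effectors Gli1 and Gli2 at -0.37 and 1.06. Of 12 regional gut factors, 1 was higher and 6 lower (median -0.26), among them Gata6 (-1.76), Hnf4a (-1.59) and Cdx2 (-0.37). Under quantile normalization the higher and lower counts were 1 and 4 for the regional factors, 2 and 2 for the Hedgehog pathway and 1 and 3 for the Hox cofactors. Those of the Polycomb, Trithorax and FOXO target lists did not change. The ileal genes Fabp6 and Slc10a2, above background on all 6 arrays, had differences of -2.70 and -2.41. Of 12 FOXO target genes, 4 were higher, such as Txnip (1.29) and Cdkn1b (1.23), and 6 lower, such as Bcl6 (-2.17) and Pdk4 (-1.30), and the median was -0.17. Leaving out the scaling moved the median of named genes by 1.85, and with it the lower calls in these 6 lists were lost.

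**Figure D5:**
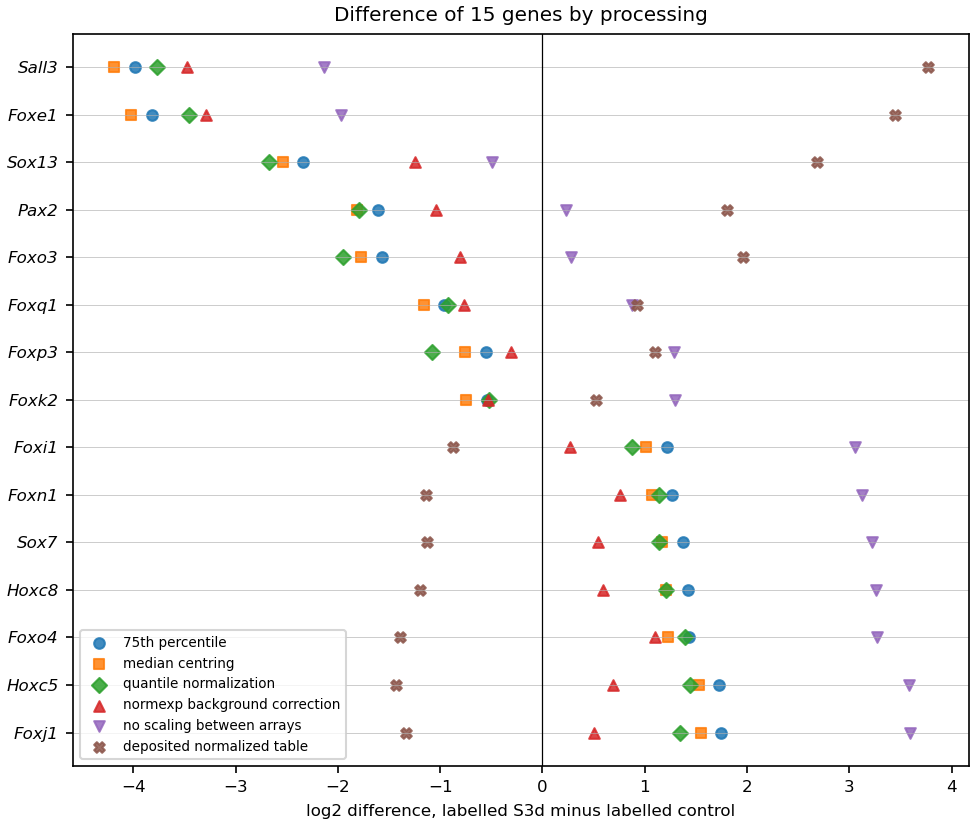
Log2 difference (labelled S3d minus labelled control) of the 15 genes plotted above by array, under 6 ways of processing. Scaling to the 75th percentile, median centring, quantile normalization and normexp background correction gave the same sign for all 15, values without scaling lay further right, and the normalized table gave the opposite sign. Among the 7 genes that were higher, the normexp values were the smallest of the scaled ones.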

How the data were processed

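Gene expression was measured on 6 rat arrays (3 control, 3 S3d), each of RNA pooled from 3 rats. The arrays were run and scanned by a contractor, and spots were quantified with Agilent Feature Extraction 10.7. The authors deposited the processed spot intensity, already background-subtracted, with flags for spots above background. The deposited normalized table holds log2 values with a median of 6.65 in every column, and its normalization is not given in the sources used here. Its group labels are opposite to those of the scanner files, and no sample was reassigned.

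Control spots and outlier spots were left out, spots of 1 probe averaged, and log2 intensities centred on the 75th percentile of the array. Probes that either group had well above background on each of its 3 arrays entered the fit with limma 3.58.1 (R 4.3.3; lmFit, eBayes), with Benjamini-Hochberg adjustment over all of them and calls at 0.05. Accessions were named through RefSeq (GRCr8), which gave 17512 of 20904 probes with an accession a symbol. Coordinates of promoters are from the same build, and 47 of 75 genes (62.7%) had a promoter entry, so no summary over the members was made. Bounds use, per array, the higher of the lowest signal well above background and the probe's own. They are approximate, since that lowest signal is taken over the whole array and is not the detection limit of the probe. The fit was tested on simulated data.

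Named were Sall3 and Foxe1, the 8 highest and 8 lowest differences among genes above background on all arrays without overlap, and the 3 genes of each family with the highest control level. Some genes that this rule or the lists name are not reported here. The members and gene lists were chosen with earlier results of these data known. The number of arrays limits the precision. Replicate numbers do not pair the samples: same-numbered deviations correlated at 0.02, 0.022 and -0.049 over 31133 probes. Alternatives were other scalings, background correction, filters, flags, tests, thresholds, probe choice, a replicate block and leaving out each array.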

Additional observations from a re-analysis of the deposited data

How the results depend on the processing

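The signed results depend most on which group labels are used, those of the scanner files or of the normalized table, and on the scaling. Against 27 members higher on the S3d-labelled arrays and 13 lower, the deposited normalized table gave 15 and 20 by its labels, values without scaling between arrays 50 and 3, and the threshold of the study (unadjusted p under 0.01 and 1.5-fold) 23 and 7. Without scaling the median difference of named genes was 1.85, with median centring -0.20 and in the main setting 0.00. In the table, all 15 genes named for their difference had the opposite sign: Sall3 3.77, Foxe1 3.45, Sox13 2.68, Foxo3 1.96, Pax2 1.80, Foxp3 1.10, Foxq1 0.92, Foxk2 0.52, Foxi1 -0.87, Sox7 -1.13, Foxn1 -1.14, Hoxc8 -1.20, Foxj1 -1.33, Foxo4 -1.39 and Hoxc5 -1.43. Without scaling 5 turned positive (Foxk2 1.30, Foxp3 1.29, Foxq1 0.88, Foxo3 0.28 and Pax2 0.23), since the arrays labelled S3d were brighter. The other probe of Sall3, added after its value was seen, gave 0.63. Of the 40 members called, 39 kept their sign under quantile normalization and 39 with normexp, the exception being Sall1, and 32 and 33 were also called. Normexp gave smaller differences, such as 0.27 for Foxi1 and 0.76 for Foxn1, where the main values were 1.22 and 1.27. Its offset of 50 shrinks the differences of dim probes by construction. Leaving out each array in turn gave 26 to 27 higher and 12 to 13 lower, and 46 to 48 members above background on all remaining arrays. Normexp gave 20 and 14, median centring 26 and 16, analysis of variance 23 and 12, an intensity trend 28 and 13, no filter 29 and 13, and a filter on all 6 arrays 21 and 12. The positive-and-significant flag put 54 members above background in place of 46. A replicate block gave 27 and 13, the same as without it. No fit with the slide as a block could be made, as each slide held 1 group. Dim probes limit what can be said of the 16 members not above background on any array.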
